A study of Mus musculus with 71 samples.

Results

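A pair of mouse cell preparations labelled as directly induced oocytes, which the sample names call DIOLs.S and DIOLs, was compared on day 5 of culture. Each preparation was represented by 2 RNA-seq libraries, so the comparison rested on 4 of the 71 samples of the series, chosen by their sample names alone. All 4 libraries carried the genotype label MGA8 and the strain label C57BL/6 X 129, and no animal age was given for the cells themselves. The labels describe 2 ways of culturing such cells: embryonic stem cells aggregated on their own with SCF, Shield1 (0.5 µM) and Y-27632, or stem cells aggregated with somatic cells of E12.5 female gonads and given Shield1. They do not say which of these routes DIOLs.S or DIOLs followed, what the letter S stands for, which genes the stem cells carried, or whether the 2 libraries of a group were separate cultures. Shield1 is a small molecule that keeps proteins fused to a destabilising domain from being degraded, and so switches on an introduced factor.

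An oocyte normally grows inside a follicle of gonadal somatic cells, the granulosa cells, which make anti-Müllerian hormone, inhibins and Kit ligand. Before growth the female germ cell enters meiosis, builds the synaptonemal complex between paired chromosomes, and then arrests. During growth it stores mRNA and makes the egg coat and the proteins of the subcortical maternal complex. The published set of factors that induces oocyte-like growth in stem cells includes Sohlh1, Lhx8, Stat3, Tbpl2, Dynll1 and Sub1, and it acts in the absence of meiosis.

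Expression was read as TPM, a level scaled for transcript length and library size, from a table the authors deposited, and the genes used here held 54.2% and 53.5% of all TPM in the DIOLs.S libraries, against 67.8% in both DIOLs libraries. That share was 52.1% to 56.4% in the DIOLs.S libraries of days 1, 3 and 7 and 66.8% in those of day 14. It was 59.1% to 63.5% in the DIOLs libraries of days 10, 15 and 25. Why the share differed was not tested. Genes at 1 TPM or more numbered 9941 and 9959 in DIOLs.S and 9980 and 9945 in DIOLs. The 2 libraries of a group correlated at r = 0.985 in DIOLs.S and r = 0.989 in DIOLs over 11603 genes, a description across genes that are not independent replicates. The markers of the labelled cell type were present in all 4 libraries. Padi6, a component of the cytoplasmic lattices of oocytes, was the most abundant gene read, with 7869 and 6680 TPM in DIOLs.S and 7731 and 7630 TPM in DIOLs. Zp3, an egg coat protein, had 1171 and 966 TPM in DIOLs.S and 1728 and 1731 TPM in DIOLs.

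Of 11603 genes tested, 1378 (11.9%) differed between DIOLs.S and DIOLs at day 5, by limma on log2(TPM + 1) with a Benjamini-Hochberg adjusted p under 0.05 and a change of at least 1 on the log2 scale. Genes past both thresholds are referred to as called. In DIOLs.S 520 genes were higher (4.48%) and 858 were lower (7.39%). In 1377 of the 1378 genes both DIOLs.S libraries lay on the same side of both DIOLs libraries, as they did in 69.7% of all genes tested, and the size threshold favours such genes. The median change of all genes was -0.07. Each of the 4 libraries was also divided by the median of its ratios to their geometric mean, referred to as centring. These ratios were taken over genes above 0 in all 4 libraries. Centring gave 612 higher genes (5.28%), which included all 520, and 696 lower genes (6%). Genes of gonadal somatic cells and of early meiosis were higher in DIOLs.S, and genes of stroma and matrix were lower. The short lists of oocyte growth genes held few calls, which did not set them apart from the 11.9% of all genes.

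**Figure D1:**
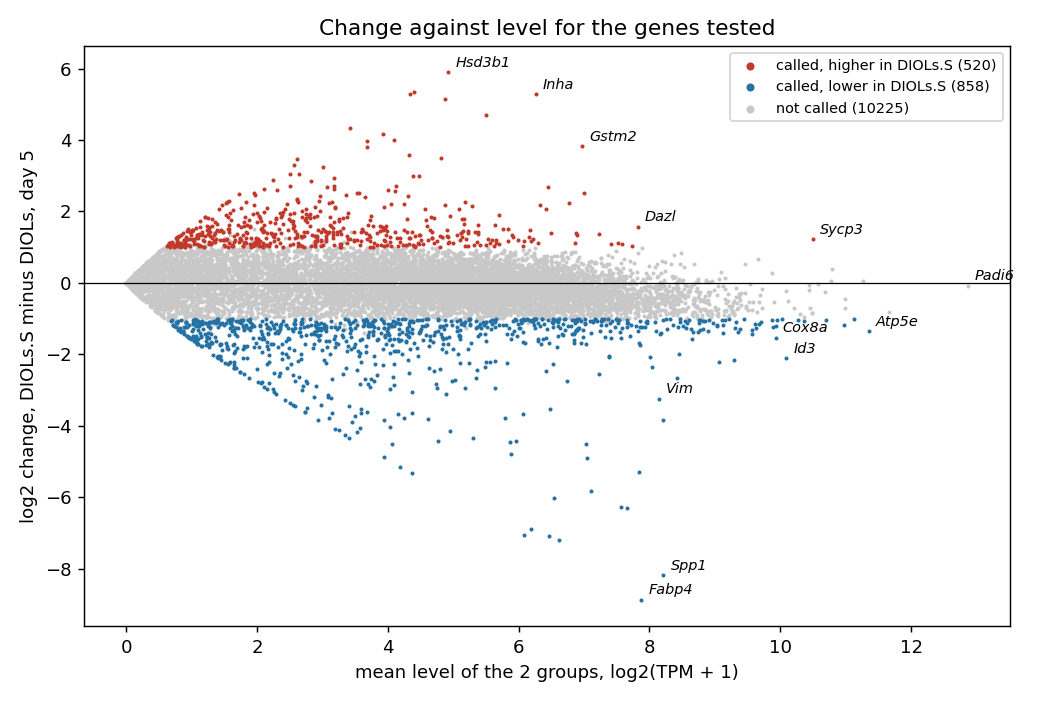
Log2 change at day 5, DIOLs.S minus DIOLs, against the mean level of both groups on the log2(TPM + 1) scale, with 1 point per gene; red and blue points are the 520 genes called higher and the 858 called lower in DIOLs.S, and grey points were not called. Hsd3b1 and Inha stand at the top, Fabp4 and Spp1 at the bottom, and Padi6 lies near 0 at the right edge.

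Granulosa and gonadal somatic genes were higher in DIOLs.S: of 23 tested, 13 were higher and 1, Inhba, was lower, with a median change of 1.58 against -0.07 for all genes. The 25 genes of the list in the table summed to 507 and 520 TPM in DIOLs.S and to 105 and 111 TPM in DIOLs. No member was at 0 in both DIOLs.S libraries, while 5 were at 0 in both DIOLs libraries, Nr5a1, Hsd3b1, Wnt6, Fshr and Cyp17a1. Fewer cells of a type and less RNA per cell cannot be told apart in such bulk libraries.

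Among the hormones and their receptors, Inha, the alpha subunit of the inhibins, had 156 and 141 TPM in DIOLs.S, against 3.38 and 2.40 TPM in DIOLs (log2 change 5.27, SE 0.67, limma adjusted p = 4.7e-06). Amhr2, the receptor of anti-Müllerian hormone, had 57.2 and 54.3 TPM in DIOLs.S, against 0.36 and 0.90 TPM in DIOLs (log2 change 5.14, SE 0.43, limma adjusted p = 2.8e-08). Both genes were abundant in each DIOLs.S library and close to absent in each DIOLs library. The hormone itself, Amh, was less abundant than its receptor, with 6.40 and 13.1 TPM in DIOLs.S and 1.27 and 2.11 TPM in DIOLs, a change of 1.94. Fst, which binds activins, had 14.5 and 25.3 TPM in DIOLs.S and 2.71 and 7.11 TPM in DIOLs, a change of 1.88. Inhba, the beta A subunit of activin and inhibin, went the other way and was scarce in both preparations, with 0.80 and 0.91 TPM in DIOLs.S and 4.85 and 10.3 TPM in DIOLs. Its call was lost without either DIOLs.S library, without DIOLs replicate 2, and with a pseudocount of 0.1. Inhbb, the beta B subunit, had 7.18 and 6.12 TPM in DIOLs.S and 14.8 and 11.2 TPM in DIOLs and was not called (adjusted p = 0.40 by limma).

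Of the list's transcription factors of the early gonad, Nr5a1, Wt1, Gata4, Emx2 and Esr2 were higher in DIOLs.S. Nr5a1, which drives steroidogenic genes, had 10.2 and 10.1 TPM in DIOLs.S and was listed at 0 in both DIOLs libraries. Wt1 had 26.9 and 28.4 TPM in DIOLs.S and 0.91 and 0.34 TPM in DIOLs, a change of 4.16 (SE 0.39). Gata4 had 29.1 and 24.0 TPM in DIOLs.S and 2.91 and 4.24 TPM in DIOLs (limma adjusted p = 2.8e-06). None of these factors overlapped between the preparations, which was also so for 69.7% of all genes tested. Emx2, needed for formation of the gonad, changed by 1.58, and Esr2, the estrogen receptor of granulosa cells, changed by 1.17, both at under 11 TPM in every library. Lhx9 (2.00 and 2.47 TPM in DIOLs.S, 0.67 and 0.73 TPM in DIOLs), Runx1 and Nr2f1 were not called.

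Among the signalling molecules of the list, Kitl, Wnt6 and Wnt4 were higher, while Rspo1, Bmp2 and Inhbb were not called. Kitl, the ligand of the receptor Kit on oocytes, had 29.3 and 29.5 TPM in DIOLs.S and 3.69 and 3.61 TPM in DIOLs (log2 change 2.71, SE 0.38, limma adjusted p = 1.3e-05). Kit itself had 58.3 and 49.7 TPM in DIOLs.S and 56.9 and 54.7 TPM in DIOLs and was not called (log2 change -0.05, adjusted p = 0.75 by limma). The ligand passed the test and its receptor did not. Wnt6 had 38.3 and 41.8 TPM in DIOLs.S and was listed at 0 in both DIOLs libraries. Wnt4, which acts in ovarian differentiation, had 12.8 and 14.4 TPM in DIOLs.S and 2.12 and 1.93 TPM in DIOLs, a change of 2.27. Not every ovarian Wnt signal followed: Rspo1, which strengthens Wnt signalling in the female gonad, had 38.1 and 43.5 TPM in DIOLs.S and 56.0 and 55.1 TPM in DIOLs (log2 change -0.44, adjusted p = 0.54 by limma). Over the Wnt pathway list, 3 of 13 genes tested were higher in DIOLs.S, Wnt6, Wnt4 and Rnf43, and none was lower.

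Hsd3b1, an enzyme of steroid synthesis, had 58.5 TPM in each DIOLs.S library and was listed at 0 in both DIOLs libraries. Fshr, the receptor of follicle-stimulating hormone in growing follicles, was at 0.17 and 0.39 TPM in DIOLs.S and at 0 in DIOLs, and Cyp17a1, an enzyme of the theca cells that make androgens, was at 0 and 1.84 TPM in DIOLs.S and at 0 in DIOLs. Neither was called. The 15 largest increases also held genes outside the list. Gstm2, a glutathione transferase, had 208 and 257 TPM in DIOLs.S and 18.5 and 12.7 TPM in DIOLs. Akr1cl, an aldo-keto reductase, had 94.8 and 77.7 TPM in DIOLs.S and 3.39 and 1.56 TPM in DIOLs. Igfbp5, a binding protein of insulin-like growth factors, had 56.3 and 45.2 TPM in DIOLs.S and 4.10 and 3.06 TPM in DIOLs. Slc18a2, a vesicular transporter of monoamines, had 30.7 and 31.3 TPM in DIOLs.S and 1.11 and 0.92 TPM in DIOLs, and Gatm, the first enzyme of creatine synthesis, had 28.7 and 43.6 TPM in DIOLs.S and 2.10 and 1.94 TPM in DIOLs. Greb1, an estrogen-responsive gene, Fndc5, Serpina3a and Cst12 completed the 15, and the last pair was listed at 0 in both DIOLs libraries.

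**Figure D2:**
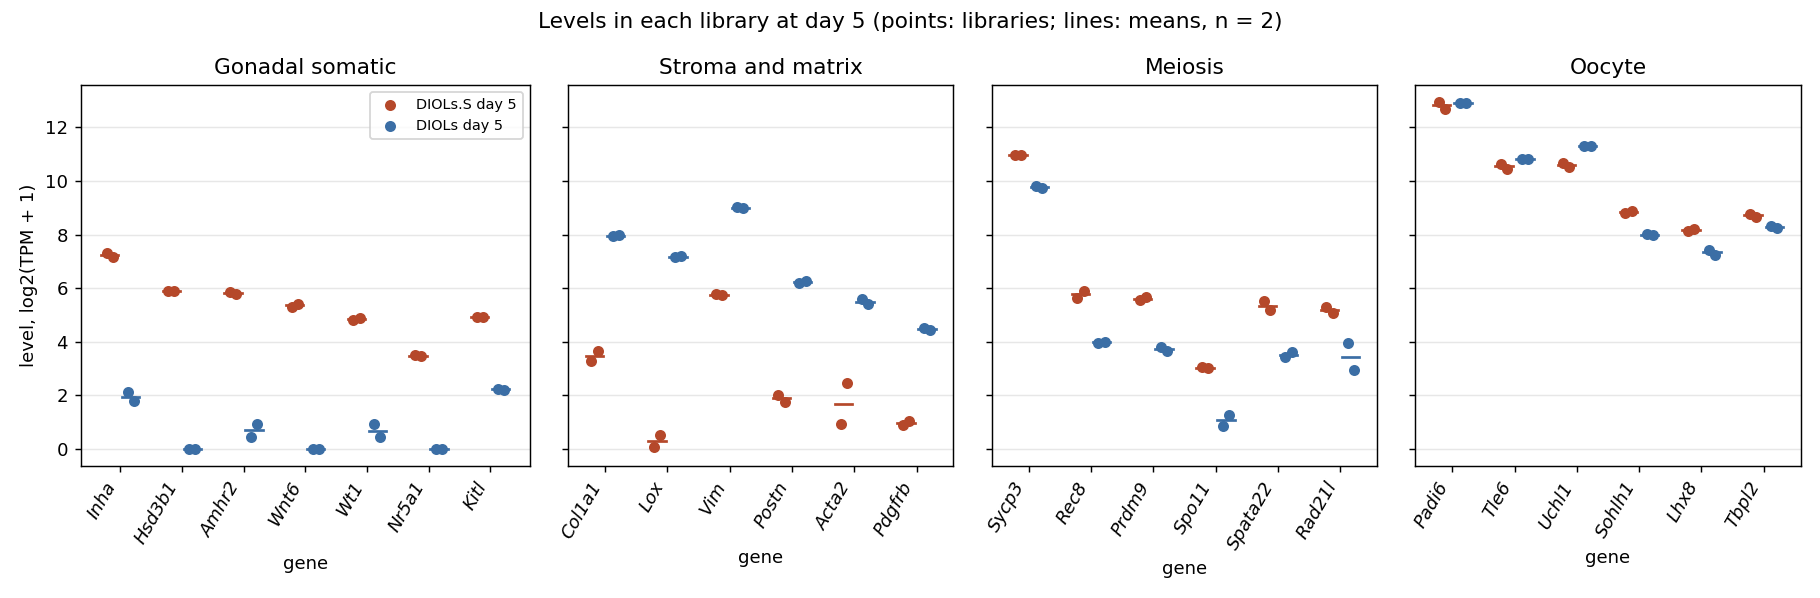
Level in each library at day 5 as log2(TPM + 1) for 25 genes in 4 groups, with DIOLs.S in red left of DIOLs in blue; points are libraries and short lines are means of 2. The genes drawn were picked, and members that went otherwise, such as Inhba, Myl9, Col3a1, Oosp3 and Zar1, are not shown. Of those drawn, the gonadal somatic and meiotic genes sit higher in DIOLs.S, the stromal genes sit lower, and the oocyte genes lie within 1 log2 unit.

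These 15 genes were followed through the other days of each preparation as a description. In DIOLs, 13 of the 15 stayed under 10 TPM on days 5, 10, 15 and 25. In DIOLs.S, 14 of the 15 had a higher mean on day 7 than on day 5, but such a rise can rest on 1 library. Wnt6, for example, averaged 40.0 TPM on day 5 and 73.7 TPM (SD 61.2, n = 2) on day 7. The 2 libraries of day 7 differed widely. The summed gonadal somatic list shows this: it was 186 and 382 TPM on day 1 of DIOLs.S, 604 and 682 TPM on day 3, 507 and 520 TPM on day 5, 633 and 2565 TPM on day 7, and 65.8 and 103 TPM on day 14. In DIOLs the sum was highest on day 5 and between 22.0 and 55.7 TPM in every library of days 10, 15 and 25. In vitro oocytes labelled WT of day 11 in the same series summed to 1237 and 1248 TPM. On average 14 of the 15 genes were higher there than in DIOLs.S on day 5. The WT in vitro oocytes of day 13 summed to only 53.41 and 56.45 TPM, so the high level was not shared by both WT days.

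The Amhr2 promoter is shown because it is the one promoter among the 8 available for the 13 raised gonadal somatic genes that holds AAGGTCA, the half-site that NR5A1 binds. It lies at chr15:102445117-102445416 on the plus strand of GRCm38.p6 and runs from 250 bases before to 50 bases after the RefSeq start. The motif was searched on both strands and is in capitals.
Amhr2: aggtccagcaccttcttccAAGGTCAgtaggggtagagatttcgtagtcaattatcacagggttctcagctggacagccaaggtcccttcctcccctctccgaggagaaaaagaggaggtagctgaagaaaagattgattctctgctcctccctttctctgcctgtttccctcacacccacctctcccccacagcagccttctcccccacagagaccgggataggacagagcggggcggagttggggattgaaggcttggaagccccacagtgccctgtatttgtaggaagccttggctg
The match begins 231 bases before the start. The same letters occur in 4.66% of all 27025 promoters, in 3.52% of the 8643 available for genes tested, in 4.75% of the 358 available for genes higher in DIOLs.S and in 3.92% of the 612 available for genes lower. Nr5a1 and Amhr2 were both higher in DIOLs.S. Binding was not measured here.

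Stromal and matrix genes moved the opposite way. Of 19 tested, 11 were lower in DIOLs.S and 1 was higher, with a median change of -1.66, and the list summed to 323 and 390 TPM in DIOLs.S against 1608 and 1602 TPM in DIOLs. Col1a1, a chain of fibrillar collagen, had 8.77 and 11.5 TPM in DIOLs.S and 244 and 253 TPM in DIOLs (log2 change -4.50, SE 0.55, limma adjusted p = 3.1e-06). Lox, which crosslinks collagen, had 0.04 and 0.44 TPM in DIOLs.S and 142 and 145 TPM in DIOLs (log2 change -6.88, SE 0.45, limma adjusted p = 9.2e-10). In both genes the DIOLs libraries agreed closely and the DIOLs.S libraries were far below them. Vim, the intermediate filament protein of mesenchymal cells, had 53.5 and 52.6 TPM in DIOLs.S and 518 and 505 TPM in DIOLs, a change of -3.25. Postn, a matrix protein, fell by 4.34 and Acta2, smooth muscle actin, by 3.82. Pdgfrb, a receptor of perivascular cells, fell by 3.52, and Twist1, a mesenchymal transcription factor, by 3.21.

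Not all matrix genes shared in it. Col3a1 had 41.5 and 36.2 TPM in DIOLs.S and 28.8 and 24.3 TPM in DIOLs and was not called (log2 change 0.53, adjusted p = 0.47 by limma). Dcn, decorin, had 11.4 and 15.6 TPM in DIOLs.S and 24.0 and 25.3 TPM in DIOLs and was not called either. Myl9, a myosin light chain of smooth muscle, was the member that was higher, with 52.6 and 64.5 TPM in DIOLs.S and 26.4 and 18.1 TPM in DIOLs. The stromal genes that fell in DIOLs.S were thus led by Lox, Col1a1, Postn and Acta2.

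The largest decreases of all lay beyond the list. Fabp4, a fatty acid carrier of fat, endothelial and macrophage cells, was listed at 0 in both DIOLs.S libraries and had 463 and 471 TPM in DIOLs. Spp1, osteopontin, had 1.36 and 0.74 TPM in DIOLs.S and 574 and 606 TPM in DIOLs (log2 change -8.19, SE 0.57, limma adjusted p = 2.3e-09). Col10a1, the collagen of hypertrophic cartilage, had 0.20 and 0.39 TPM in DIOLs.S and 173 and 176 TPM in DIOLs. These genes were among the abundant mRNAs of the DIOLs libraries and nearly absent from those of DIOLs.S. Ctla2a, a cysteine protease inhibitor, had 0.15 and 0.55 TPM in DIOLs.S and 198 and 188 TPM in DIOLs. S100a4, a calcium-binding protein, was listed at 0 in DIOLs.S and had 123 and 143 TPM in DIOLs. Igfbp7, a secreted binding protein, had 3.21 and 5.08 TPM in DIOLs.S and 390 and 404 TPM in DIOLs, and Anxa1, an annexin, had 4.26 and 3.43 TPM in DIOLs.S and 382 and 366 TPM in DIOLs. The 15 also held Lox, Ctgf, S100a6, F2r, Anxa8, Serpinb9b and Grem1. The last 3 were listed at 0 in both DIOLs.S libraries, and Grem1, a BMP antagonist, had 28.8 and 28.3 TPM in DIOLs.

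Markers of other cell types gave a mixed account of these cells. In the blood and macrophage list, 2 of 10 genes tested were lower in DIOLs.S, Spp1 and C1qb, and C1qa, C1qc and Hba-x were at 0 in all 4 libraries. The list summed to 31.8 and 42.0 TPM in DIOLs.S and to 633 and 656 TPM in DIOLs, and most of the DIOLs sum was Spp1. The endothelial list had 1 higher gene, Sox18, and 1 lower, Egfl7, of 9 tested, with sums of 38.1 and 29.5 TPM in DIOLs.S and 29.5 and 33.5 TPM in DIOLs. Fabp4 and Spp1 therefore differed between the preparations far more than the other macrophage and endothelial markers did, and the part of other cell types in these differences was not tested.

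The stromal mRNAs were followed through the days in the same way. In DIOLs.S their sum was 800 and 1455 TPM on day 1, 579 and 727 TPM on day 3, 323 and 390 TPM on day 5, 244 and 835 TPM on day 7, and 15.0 and 22.7 TPM on day 14. In DIOLs it was 1608 and 1602 TPM on day 5, 31.1 and 31.6 TPM on day 10, 10.7 and 17.2 TPM on day 15, and 21.7 and 68.9 TPM on day 25. The sum was thus low in both preparations by the end of culture. The same list in the in vitro oocytes labelled WT summed to 1104 and 1155 TPM on day 11 and to 42.9 and 44.5 TPM on day 13. Of the 858 genes lower in DIOLs.S, 532 had their highest mean of the 9 DIOL groups in DIOLs on day 5, a group that the choice of lower genes itself favours. The earliest DIOLs libraries were those of day 5, so days 1 and 3 cannot be compared. For 8 of the 15 largest decreases each of the other DIOL groups averaged under 10 TPM, leaving out the DIOL matured to MII, as in all counts over DIOL groups. Spp1 was an exception, with 378 TPM on average on day 1 of DIOLs.S.

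**Figure D3:**
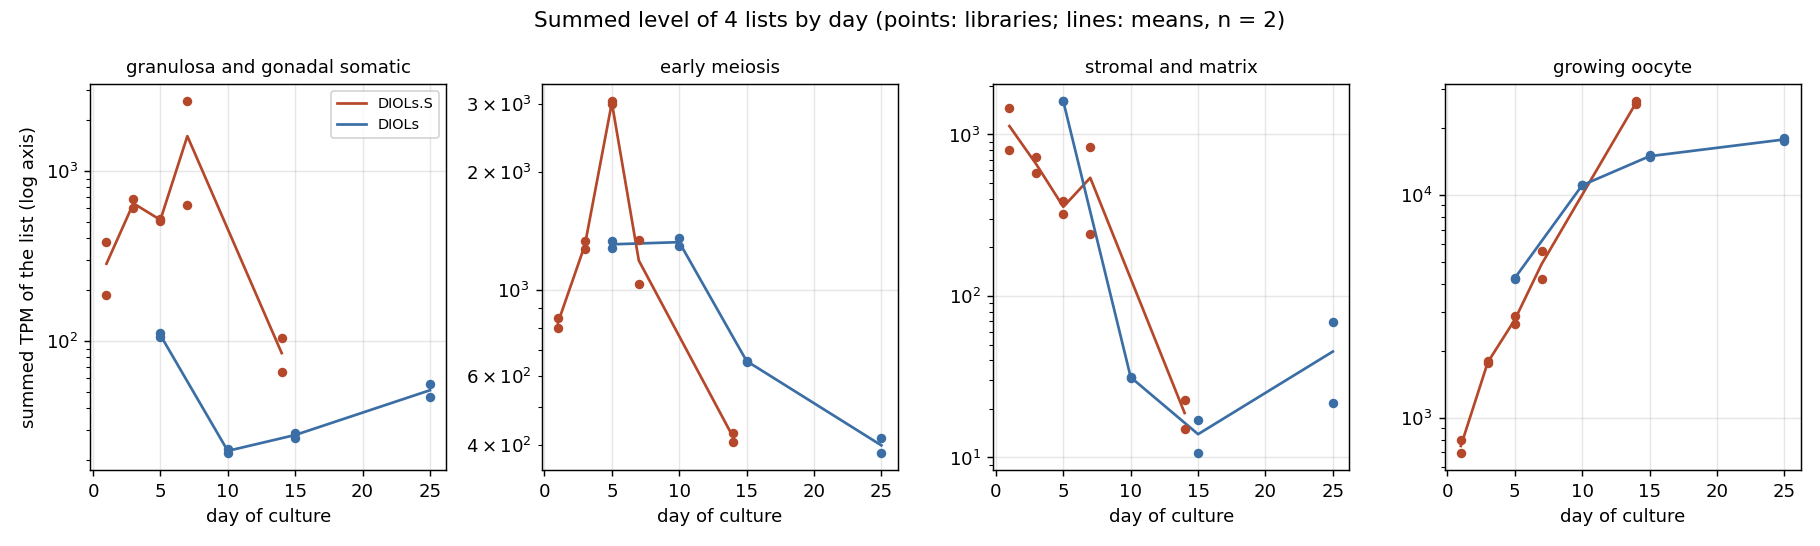
Summed TPM of 4 gene lists on a log axis by day of culture, with DIOLs.S (days 1, 3, 5, 7 and 14) in red and DIOLs (days 5, 10, 15 and 25) in blue; points are libraries and lines join means of 2. The early meiosis sum peaks at day 5 in DIOLs.S, and the stromal sum of DIOLs drops after day 5.

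Genes of early meiosis were higher in DIOLs.S as a group. Of 19 tested, 13 were higher and none was lower, 18 had a change above 0, and the median change was 1.22. The 19 genes summed to 3045 and 2992 TPM in DIOLs.S and to 1335 and 1281 TPM in DIOLs. The count of 13 was the same after centring the 4 libraries and after removing the trend with transcript length described below.

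Components of the chromosome axis and synaptonemal complex led by level. Sycp3, an axis protein of meiotic chromosomes, had 2025 and 2021 TPM in DIOLs.S and 890 and 844 TPM in DIOLs (log2 change 1.22, SE 0.10, limma adjusted p = 1.5e-08). Sycp1, the transverse filament of the complex, had 135 and 124 TPM in DIOLs.S and 47.3 and 49.8 TPM in DIOLs, a change of 1.40. Hormad1, which monitors unpaired axes, had 76.2 and 71.6 TPM in DIOLs.S and 21.5 and 25.4 TPM in DIOLs, a change of 1.62. In each of these genes the 2 libraries of a preparation lay close together and the preparations did not overlap, as in 69.7% of all genes tested. The meiotic cohesins also rose: Rec8 had 48.9 and 58.5 TPM in DIOLs.S and 14.6 and 15.0 TPM in DIOLs, and Smc1b had 257 and 261 TPM in DIOLs.S and 120 and 122 TPM in DIOLs. Rad21l, a further cohesin subunit, had 38.4 and 32.9 TPM in DIOLs.S and 14.3 and 6.77 TPM in DIOLs.

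Some genes of meiotic DNA breaks and their repair were also called, while Mei1, Msh4 and Mlh3 were not. Spo11, the enzyme that cuts the DNA, was scarce, with 7.24 and 7.03 TPM in DIOLs.S and 0.80 and 1.40 TPM in DIOLs (log2 change 1.97, SE 0.27, limma adjusted p = 1.3e-05). Prdm9, which marks the sites of recombination, had 45.5 and 49.2 TPM in DIOLs.S and 13.0 and 11.7 TPM in DIOLs (log2 change 1.86, SE 0.21, limma adjusted p = 1.2e-06). Both genes changed more than Sycp3, the most abundant of the list. Dmc1, the strand exchange protein, changed by 1.16, and Msh5, a crossover factor, by 1.35. Spata22 changed by 1.82 and its partner Meiob by 1.06. Among the 6 members not called, Sycp2 had 73.3 and 69.7 TPM in DIOLs.S and 51.1 and 49.9 TPM in DIOLs (log2 change 0.49), and Mlh3 had 28.8 and 28.6 TPM in DIOLs.S and 30.1 and 30.3 TPM in DIOLs (log2 change -0.07).

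Dazl, an RNA-binding protein that licenses germ cells for meiosis, changed in the same direction, with 343 and 332 TPM in DIOLs.S and 116 and 109 TPM in DIOLs (log2 change 1.58, SE 0.14, limma adjusted p = 4.2e-08). It was the one gene called among 11 tested in the germ cell specification list. Ddx4, a helicase of germ cells, had 184 and 179 TPM in DIOLs.S and 149 and 152 TPM in DIOLs and was not called. In the piRNA pathway, which silences transposons in germ cells, 3 of 15 genes tested were higher and 1 was lower. Tdrd9, a helicase, changed by 2.21, Mov10l1 by 1.39 and Rnf17 by 1.18. Gtsf1 went the other way, with 298 and 315 TPM in DIOLs.S and 813 and 806 TPM in DIOLs.

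Promoters of Sycp3, Hormad1 and Sycp1 are shown because these 3 of the 11 available for the 13 raised meiotic genes hold CACGTG, an E-box, which reads the same on both strands. Each runs from 250 bases before to 50 bases after the RefSeq start in GRCm38.p6, with the E-box in capitals. Sycp3 lies at chr10:88459337-88459636 on the plus strand, Hormad1 at chr3:95559427-95559726 on the plus strand, and Sycp1 at chr3:102936051-102936350 on the minus strand.
Sycp3: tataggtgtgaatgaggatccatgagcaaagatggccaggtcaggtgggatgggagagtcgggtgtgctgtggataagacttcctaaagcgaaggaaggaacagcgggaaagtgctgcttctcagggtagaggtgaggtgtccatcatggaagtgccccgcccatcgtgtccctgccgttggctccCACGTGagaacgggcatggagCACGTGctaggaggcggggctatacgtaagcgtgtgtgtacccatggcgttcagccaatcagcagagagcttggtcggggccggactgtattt
Hormad1: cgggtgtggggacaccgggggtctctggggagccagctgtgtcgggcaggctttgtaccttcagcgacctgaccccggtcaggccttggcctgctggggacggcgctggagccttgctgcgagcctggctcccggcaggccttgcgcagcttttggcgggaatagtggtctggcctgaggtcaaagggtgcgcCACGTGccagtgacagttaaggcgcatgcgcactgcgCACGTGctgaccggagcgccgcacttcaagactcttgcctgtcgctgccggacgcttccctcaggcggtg
Sycp1: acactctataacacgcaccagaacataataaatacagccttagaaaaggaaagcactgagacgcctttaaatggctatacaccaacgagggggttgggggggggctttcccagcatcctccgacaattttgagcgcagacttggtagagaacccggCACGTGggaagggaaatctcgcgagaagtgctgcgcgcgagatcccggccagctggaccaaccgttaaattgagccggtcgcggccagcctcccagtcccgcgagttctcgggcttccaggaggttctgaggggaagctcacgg
Sycp3 and Hormad1 each held 2 E-boxes and Sycp1 held 1. They began 64 and 43 bases before the start in Sycp3, 57 and 20 bases before it in Hormad1, and 94 bases before it in Sycp1. The E-box occurs in 7.24% of all 27025 promoters, in 9.89% of the 8643 available for genes tested, in 8.38% of those of genes higher in DIOLs.S and in 8.66% of those of genes lower. The other 8 meiotic promoters available did not hold these letters. TGANTCA, the AP-1 site, was searched on both strands in the same way and occurs in 7.93% of all promoters, in 5.77% of those of genes tested, in 4.47% of those of genes higher in DIOLs.S and in 10.3% of the 612 available for genes lower, but in none of the 6 available for the stromal genes that fell.

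Among the 9 DIOL groups the summed meiotic mRNAs were highest on day 5 of DIOLs.S. On day 5 most of the sum was Sycp3 in both preparations, so it says little of the scarcer members. The list summed to 823 TPM on average on day 1 (SD 35.8, n = 2), 1303 TPM on day 3 (SD 39.6), 3019 TPM on day 5 (SD 38.0), 1189 TPM on day 7 (SD 218) and 419 TPM on day 14 (SD 16.3). In DIOLs the averages were 1308 TPM on day 5 (SD 37.7, n = 2), 1325 TPM on day 10 (SD 41.6), 656 TPM on day 15 (SD 2.39) and 399 TPM on day 25 (SD 23.8). The averages of DIOLs on days 5 and 10 were thus near that of DIOLs.S on day 3. Rec8 did not follow the sum, since it averaged 134 TPM on day 3 of DIOLs.S, above both its day 5 libraries.

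Calls among genes of oocyte growth were few, but these lists are short and 11.9% of all genes tested were called. The lists were thus not set apart by their calls, and most of their genes lay somewhat lower in DIOLs.S. None of 12 growing oocyte genes was called, with a median of -0.45 and 2 members above 0, and the list summed to 2867 and 2645 TPM in DIOLs.S and to 4218 and 4254 TPM in DIOLs. None of 4 subcortical maternal complex genes was called, with a median of -0.28 and sums of 10034 and 8587 TPM in DIOLs.S and 10249 and 10133 TPM in DIOLs. The egg coat and oocyte-secreted genes summed to 2049 and 1701 TPM in DIOLs.S and to 2867 and 2887 TPM in DIOLs. No more than 1 growing oocyte gene was called when a library was left out. Of 8 egg coat and oocyte-secreted genes, 1 was lower in DIOLs.S, Oosp3, a secreted oocyte protein, with 4.06 and 3.25 TPM in DIOLs.S and 9.62 and 10.4 TPM in DIOLs. Uchl1, a ubiquitin hydrolase abundant in oocytes, had 1639 and 1475 TPM in DIOLs.S and 2519 and 2539 TPM in DIOLs. Its change of -0.70 (adjusted p = 1.3e-05 by limma) passed the p threshold and not the size threshold. Zp1, another egg coat protein, differed in the same way (log2 change -0.80, adjusted p = 2.8e-05 by limma). Gdf9, the growth factor that oocytes send to granulosa cells, had 113 and 80.4 TPM in DIOLs.S and 72.8 and 59.9 TPM in DIOLs (log2 change 0.52). Of 10 genes of maternal mRNA storage 1 was higher, Dazl, and 2 were lower, Gtsf1 and Zar1. Zar1, a binding protein of stored mRNA, was the weaker call, with 16.3 and 16.2 TPM in DIOLs.S and 45.4 and 26.5 TPM in DIOLs, but its change of -1.05 was under the size threshold after centring the 4 libraries.

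None of the 6 measured factors of the published induction set passed both thresholds. The introduced copies and the cells' own copies could not be separated, and none of 8 other oocyte transcription factors was called. Sohlh1 had 446 and 469 TPM in DIOLs.S and 259 and 251 TPM in DIOLs (log2 change 0.84, SE 0.27, limma adjusted p = 0.019). Lhx8 had 283 and 294 TPM in DIOLs.S and 173 and 149 TPM in DIOLs (log2 change 0.84, SE 0.10, limma adjusted p = 1.8e-06). Tbpl2, an oocyte form of the TATA-binding protein, had 438 and 407 TPM in DIOLs.S and 316 and 305 TPM in DIOLs. These 3 were above DIOLs in both DIOLs.S libraries by less than 1 log2 unit. Stat3 had 451 and 393 TPM in DIOLs.S and 429 and 406 TPM in DIOLs, so its groups overlapped. Dynll1, a dynein light chain, had 494 and 502 TPM in DIOLs.S and 827 and 787 TPM in DIOLs, and Sub1, a transcription coactivator, had 490 and 470 TPM in DIOLs.S and 681 and 696 TPM in DIOLs. With the trend of transcript length removed, 2 of the 6 were called higher.

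Among lists of stem cell genes, 1 of 12 naive pluripotency genes, Esrrb, was higher in DIOLs.S, with 16.9 and 20.5 TPM against 3.21 and 1.82 TPM in DIOLs. None of 10 primed epiblast genes was called, and none of 13 genes of DNA methylation. None of 8 two-cell-like genes, which mark a rare state of stem cells, was called, and there the DIOLs.S libraries disagreed, with summed levels of 443 and 136 TPM, against 198 and 210 TPM in DIOLs. Zfp352, for example, had 94.3 and 25.6 TPM in DIOLs.S and 29.2 and 30.9 TPM in DIOLs.

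**Figure D4:**
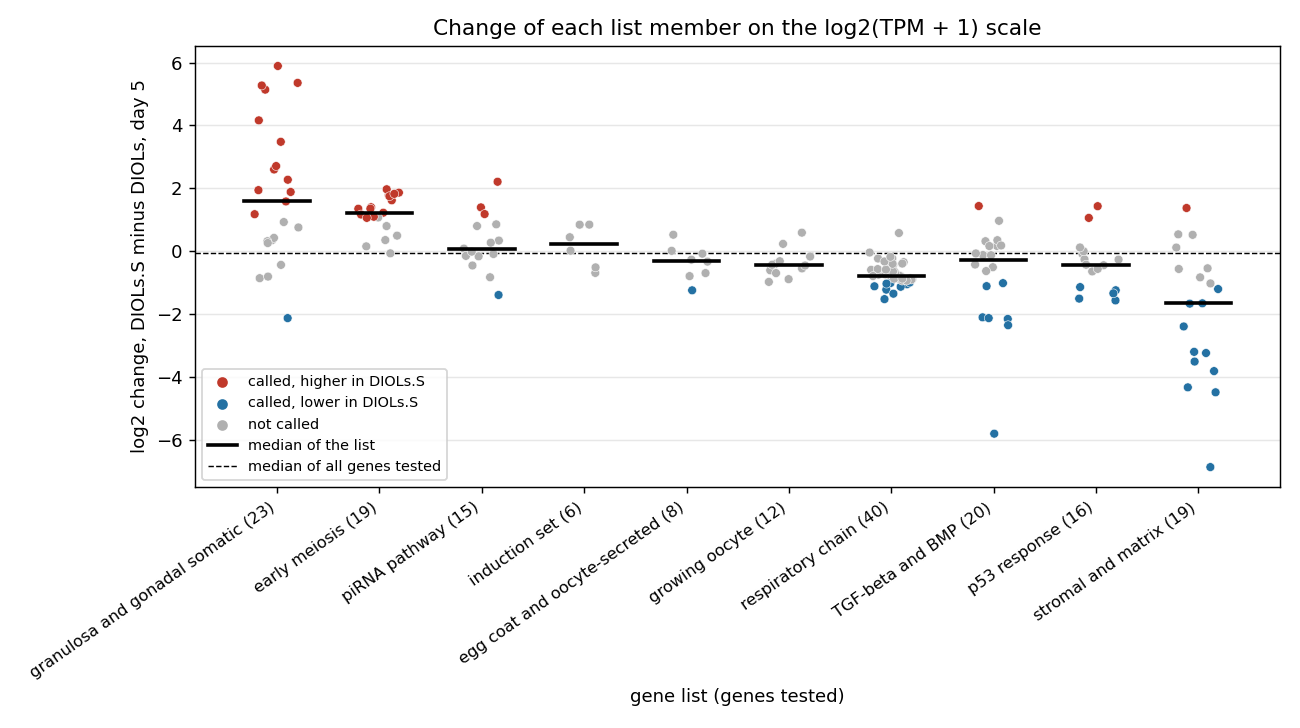
Log2 change at day 5, DIOLs.S minus DIOLs, of each tested member of 10 gene lists, 1 point per gene, with the number tested in brackets; red and blue points were called, black lines are list medians and the dashed line is the median of all genes (-0.07). Gonadal somatic and early meiosis medians are 1.58 and 1.22, and the stromal median is -1.66.

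In the list of TGF-beta and BMP ligands, receptors and targets, 7 of 20 genes tested were lower in DIOLs.S, 1 was higher and 12 were not called, with a median of -0.28. The Id genes, which BMPs induce and which block basic helix-loop-helix factors, carried most of the level. Id3 had 461 and 361 TPM in DIOLs.S and 1723 and 1807 TPM in DIOLs (log2 change -2.11, SE 0.18, limma adjusted p = 2.6e-08). Id1 had 244 and 214 TPM in DIOLs.S and 997 and 1055 TPM in DIOLs (log2 change -2.16, SE 0.27, limma adjusted p = 4.2e-06). Id2 had 87.0 and 82.3 TPM in DIOLs.S and 446 and 432 TPM in DIOLs (log2 change -2.36, SE 0.18, limma adjusted p = 1.1e-08). All 3 Id genes were separated without overlap, as were 69.7% of all genes tested. The ligand Tgfb2 and the transducer Smad9 fell by 1.02 and 1.12 at under 6 TPM in every library. Tgfbi, a matrix protein induced by TGF-beta, was higher, with 11.2 and 9.85 TPM in DIOLs.S and 3.82 and 2.75 TPM in DIOLs. The ligand Bmp4 and the decoy receptor Bambi were not called. The stromal list was lower in the same DIOLs.S libraries, and its part in the TGF-beta and BMP result was not tested.

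Genes of the p53 response lay mostly lower in DIOLs.S, and those of stress were split. Of 16 p53 genes, 5 were lower and 2 were higher, against 7.39% and 4.48% of all genes tested. Only 3 of the 16 had a change above 0, and the median was -0.44 against -0.07 for all genes. Cdkn1a, the cell cycle inhibitor p21, had 37.9 and 43.8 TPM in DIOLs.S and 112 and 136 TPM in DIOLs, and Pmaip1, which promotes apoptosis, had 22.7 and 22.8 TPM in DIOLs.S and 50.3 and 52.9 TPM in DIOLs. Sesn2, a stress sensor upstream of mTORC1, had 33.0 and 39.3 TPM in DIOLs.S and 14.0 and 11.6 TPM in DIOLs, and Trp53inp1 changed by 1.06. The p53 calls thus went both ways, while the median stayed below that of all genes. It was -0.34 after centring and -0.43 with the length trend described below removed, against 0 for all genes in each case. Among 14 immediate early and heat shock genes, Egr1 had 171 and 186 TPM in DIOLs.S and 41.8 and 33.1 TPM in DIOLs (log2 change 2.23), and Fos and Egr2 were higher too. Hspb1, a small heat shock protein, had 27.2 and 36.0 TPM in DIOLs.S and 109 and 97.9 TPM in DIOLs, and Klf6 was lower by an amount at the size threshold. The call of Fos was lost whichever of the 4 libraries was left out.

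In the cell cycle list, 1 of 19 genes was higher and 1 was lower. Top2a, the topoisomerase of dividing cells, had 98.6 and 113 TPM in DIOLs.S and 39.0 and 34.8 TPM in DIOLs. Birc5, survivin, had 44.6 and 31.2 TPM in DIOLs.S and 113 and 122 TPM in DIOLs. These 2 calls went in opposite directions, and over all genes tested 4.48% were higher and 7.39% lower. In extraembryonic endoderm 3 of 13 genes were higher, Lama1, Gata6 and Amn, and 2 were lower, Sparc and Dab2. Gata6, a transcription factor also found in gonadal cells, had 10.5 and 10.4 TPM in DIOLs.S and 2.65 and 1.76 TPM in DIOLs. Sparc, a matrix protein also made by stroma, had 89.2 and 96.6 TPM in DIOLs.S and 593 TPM in each DIOLs library. In the remaining lists (trophoblast, neural, mesoderm and cardiac, epithelial and mesothelial, integrated stress response, glycolysis and hypoxia, cholesterol synthesis, JAK-STAT, and Kit, PI3K and FOXO) no more than 2 genes were called in each.

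Respiratory chain genes were lower in DIOLs.S as a group, and this result moved with transcript length. Of 40 tested, 9 were lower and none was higher, with a median change of -0.79, and the list summed to 15381 and 15454 TPM in DIOLs.S against 27540 and 28215 TPM in DIOLs. Cox8a, a subunit of cytochrome oxidase, had 485 and 516 TPM in DIOLs.S and 1441 and 1452 TPM in DIOLs (log2 change -1.53, SE 0.07, limma adjusted p = 4.6e-12). Atp5e, a subunit of ATP synthase, had 1471 and 1470 TPM in DIOLs.S and 3616 and 3928 TPM in DIOLs (log2 change -1.36, SE 0.16, limma adjusted p = 1.6e-06). Both genes were separated without overlap, as were 69.7% of all genes tested. The transcripts of this list are short, with a median of 714 bases against 2162 bases for all genes tested.

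Over 7074 genes with a mean of at least 10 TPM in 1 or both preparations and a known transcript length, log2 change and length correlated at Spearman's rho = 0.35, a description across genes that share the 4 libraries. Genes of up to 1000 bases had a median change of -0.40, and 13.5% of them were lower in DIOLs.S and 2.43% higher. Genes over 5000 bases had a median change of 0.25, and 2.58% of them were lower and 6.08% higher. Long mRNAs were thus relatively more abundant in DIOLs.S and short ones in DIOLs. With that trend removed, 618 genes were higher (5.32%) and 640 lower (5.51%), in place of 520 and 858. Respiratory chain then had 1 lower gene and a median of -0.38, and it had 5 lower genes after centring the 4 libraries. The same removal left 13 higher genes in both the gonadal somatic and the early meiosis list and 11 lower genes in the stromal list.

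**Figure D5:**
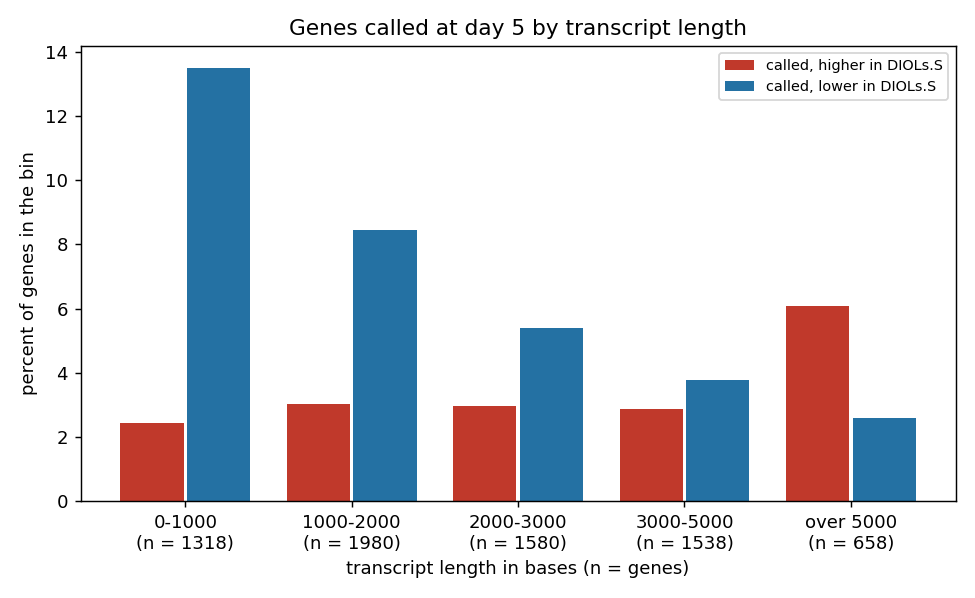
Share of genes called at day 5 in 5 classes of transcript length, with red bars for genes higher in DIOLs.S and blue bars for genes lower, in percent of the genes of each class. The share of lower genes drops with length, with 13.5% in the shortest class and 2.58% in the longest.

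The contrast was then set beside the later pair, DIOLs.S on day 14 and DIOLs on day 15, which share no library with the day 5 pair and are 1 day apart. The change in the later pair differed from the change at day 5 in 2742 genes (23.6%), 1087 with a higher (9.37%) and 1655 with a lower (14.3%) value later, by the interaction in the same limma fit. After rescaling all libraries of the fit by the median of ratios that split was 1354 and 1258. Of the 520 genes higher at day 5, 201 were above 0 and 256 below 0 in the later pair, with a median of 0.00. Of the 858 lower genes, 334 were above 0 and 444 below 0, with a median of -0.02. Over all genes tested 3810 were above 0 and 7270 below 0, with a median of -0.16. In each direction the genes called at day 5 were thus spread over both signs in the later pair.

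Single genes departed from this. Inha remained higher, with a change of 4.50 in the later pair against 5.27 at day 5, and the difference of -0.77 did not pass the test (limma adjusted p = 0.55). Id1 was lower in both, by -1.96 later and -2.16 at day 5. Dazl turned round, with -2.30 in the later pair against 1.58 at day 5 (difference -3.88, SE 0.19, limma adjusted p = 5.9e-11). The early meiosis list as a whole had a median of -0.81 later against 1.22 at day 5. Dmc1, with -2.03 later against 1.16, Msh5, with -1.88 against 1.35, and Smc1b, with -1.41 against 1.09, were called in opposite directions in the 2 pairs. Growing oocyte genes had a median of 0.97 later against -0.45 at day 5. Stromal genes had a median of 0.05 later against -1.66.

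Correlations of log2(TPM + 1) across 11603 genes place the day 5 libraries among the other groups, as a description only. Between DIOLs.S and DIOLs on day 5 they ran between 0.940 and 0.944. DIOLs.S on day 5 correlated with DIOLs.S on day 7 at 0.949 to 0.966, and DIOLs on day 5 did so at 0.925 to 0.943. With the WT in vitro oocytes of day 11, DIOLs.S on day 5 correlated at 0.891 to 0.899 and DIOLs on day 5 at 0.871 to 0.877. With those of day 13 the ranges overlapped, at 0.863 to 0.871 for DIOLs.S and 0.863 to 0.864 for DIOLs. With DIOLs on day 10 the order was reversed, at 0.901 to 0.909 for DIOLs.S and 0.913 to 0.915 for DIOLs. All 4 libraries of day 5 were less like DIOLs.S on day 14, at 0.818 to 0.836 for DIOLs.S and 0.836 to 0.845 for DIOLs.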

How the data were processed

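RNA-seq libraries of mouse cells were read from 1 table of TPM values that the authors deposited. Per the submitters' processing notes, STAR 2.6.0, featureCounts 1.6.0 and mm10 were named, with no further parameters. Of 148 sample columns, 118 were not used here. Of 15163 rows, 1 incomplete row and 22 date-like names were left out. Of 15140 genes, 14530 matched GENCODE M21 once, almost always on one of chromosomes 1 to 5 and 10 to 19, so genes of the other chromosomes were largely not analysed here. TPM keeps no read depth, so no counting interval was possible.

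Groups came from the sample names. With limma 3.58.1 (trend and robust, R 4.3.3), log2(TPM + 1) was fitted over 26 libraries of 12 groups with 14 residual degrees of freedom. Genes at 1 TPM or more in at least 2 of these libraries were tested, with Benjamini-Hochberg adjustment over all 11603. The groups were DIOLs.S and DIOLs of every day, the DIOL matured to MII, and competent and incompetent GV oocytes labelled vivo. Column names of the competent GV oocytes held 3w and those of the incompetent ones 2w. Each SE and p-value of the day 5 contrast thus rests on a spread shared over all 12 groups, not on the day 5 libraries alone. All fold changes are on the log2(TPM + 1) scale, which understates changes of low genes. Since the labels do not say that libraries were separate cultures, the spread behind each p-value may be technical. On simulated data for this comparison with 11446 genes tested, 98% of 100 genes changed by 1.5 log2 units were called, 100% of those changed by 3, and 4 unchanged genes. The changed genes were drawn only from those at about 10 TPM or more in DIOLs on day 5. The simulated noise was independent between genes and held no trend with transcript length. These shares therefore do not cover scarce genes or that trend.

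Named genes were the 15 largest called increases and decreases with a mean of at least 10 TPM and no overlap, up to 5 called members of each list, every measured induction-set member, and other list members named for their role after their values were seen. Of these, 1 gene is not reported here. Members and lists were chosen with earlier results of these data known. Promoters came from RefSeq (GRCm38.p6), 1 per gene. Transcript lengths came from GENCODE M21. Figures used matplotlib 3.10.9.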

Additional observations from a re-analysis of the deposited data

Results flagged for a closer look

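The change between DIOLs.S and DIOLs in the later pair (day 14 against day 15) differed from the change at day 5 in 9 of 10 genes, the 5 with the largest increase and the 5 with the largest decrease at day 5, by the interaction in the limma fit. The values are differences of log2(TPM + 1) changes, later minus day 5. Among the increases, the difference was -4.76 for Hsd3b1 (adjusted p = 3.9e-06), -5.02 for Wnt6 (adjusted p = 1.8e-06), -3.55 for Serpina3a (adjusted p = 0.0043) and -3.43 for Amhr2 (adjusted p = 0.00016). Amhr2 was still higher in DIOLs.S in the later pair, with a change of 1.71, but at a low level. It averaged 2.71 TPM (SD 2.09, n = 2) on day 14 of DIOLs.S and 0.04 TPM on day 15 of DIOLs. Hsd3b1, Wnt6 and Serpina3a were also scarce later, averaging 1.215, 0.365 and 2.42 TPM on day 14 of DIOLs.S. These 4 differences therefore say little of the later pair. Among the decreases, it was 8.87 for Fabp4 (adjusted p = 4.2e-06), 8.12 for Spp1 (adjusted p = 3.3e-07) and 7.10 for Ctla2a (adjusted p = 6.6e-06). It was 7.06 for S100a4 (adjusted p = 1.4e-07) and 7.09 for Col10a1. Col10a1 passed the filter only through the DIOLs libraries of day 5, so its p-value is not given. These 10 genes were chosen for their day 5 change, so a smaller change elsewhere is partly set by the choice. The later levels in DIOLs.S and DIOLs were both close to 0 for the 5 decreases. Their differences are therefore nearly the day 5 change with its sign reversed, and say little of the later pair.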

How the results depend on the processing

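The count of 1378 genes called at day 5 was 1363 with the replicate number as a block, 1448 with a pseudocount of 0.1 and 1369 with no filter. It was 1356 with only the compared groups, 1358 without trend and robust, and 1129 after rescaling all libraries of the fit by the median of ratios. A further pair of alternatives was added after seeing the data: centring the 4 libraries (1308) and removing the length trend (1258). Leaving out 1 library gave 1253 to 1511. The count of 2742 for the difference between pairs was 2713 with the block, 2612 to 2711 under the other alternatives tried, and 2442 to 2961 with 1 library left out. With the median of ratios over all libraries of the fit, the 601 lower genes were all among the 858. Of the 528 higher genes then, 473 were among the 520. Same-numbered libraries did not deviate together (r = -0.02 over 11603 genes), so the block rests on numbers alone. Of 110 named genes, none changed direction while called, and the block lost 1 call, Socs3. With the length trend removed 13 calls were lost, among them Atp5e, Uqcrq, Ndufa7, Ndufs6, Gtsf1, Zar1 and Oosp3. Leaving out 1 library lost 6 to 12 calls, and those of Sox18, Fos, Egfl7, Inhba and Zar1 were each lost in at least 1 case. Spata22 lost its call with a pseudocount of 0.1, and Col10a1 did not pass the filter without either DIOLs library. With 1 library left out, 10 to 15 gonadal somatic and 12 to 13 early meiosis genes were higher and 10 to 12 stromal genes lower. Without read counts, low TPM values have no known precision.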
